A study of Homo sapiens with 2 samples.

Results

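RNA-seq was performed on MOLM-13, a human acute myeloid leukemia (AML) cell line with the KMT2A::MLLT3 fusion, and 10 genes for enzymes of serine, glycine and folate one-carbon metabolism were examined. The members were taken by gene name from the deposited expression table, and all 10 were found among its 50868 genes. They are the serine synthesis enzymes PHGDH, PSAT1 and PSPH, the serine hydroxymethyltransferases SHMT1 and SHMT2, the folate enzymes MTHFD1, MTHFD2, MTHFD1L and ALDH1L2, and the glycine decarboxylase GLDC. The genes were chosen with their difference between the libraries in view, so the values of that difference are a description and carry no test. The study compared 1 library of cells given the empty control vector (Vector) with 1 library of cells given a construct for over-expression of UNC5B, a receptor for netrin-1 (OE-UNC5B). Both were cultured alike in medium with serum. According to the methods, constructs were delivered by lentivirus, with a CMV promoter and puromycin selection, and whether the cells were a pool or a clone is not given in the sources used here. The comparison was made in the study to look for adhesion and proliferation genes that change with UNC5B.

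The libraries held 13715566 (Vector) and 15637137 (OE-UNC5B) counted reads, and genes with 10 or more reads in total had a median of 269.5 and 316 reads. UNC5B itself had 0 reads in either library, so the over-expression is not visible in these values. The second library is therefore called the library labelled OE-UNC5B, and each direction rests on its label. All 10 myeloid markers examined, such as CD33 and SPI1, were present in both libraries, at no fewer than 247 reads (Vector) and 542 reads (OE-UNC5B). Of 3 to 4 markers each, those of fibroblasts summed to 31 and 11 reads, B cells to 4 and 12, T cells to 68 and 102 and epithelial cells to 5 and 2. Endothelial markers were at 1626 and 1471 reads, all from PECAM1, which myeloid cells also express, while CDH5, KDR, DCN, EPCAM, KRT8, MS4A1 and CD2 were at 0 in both. The myeloid markers summed to 76273 and 52311 reads and did not move one way. LYZ (51742 and 23700) and MPO (3363 and 1553) had fewer reads in the second library, whereas PTPRC (1592 and 3102), FLT3 (4067 and 6395), HOXA9 (800 and 1303) and MEIS1 (247 and 542) had more. The part of these markers in the results was not tested. Because each group is a single library, differences could not be set against replicates. Coordinates are on GRCh38, as in the deposited table, and levels of the members are given in the order Vector and then the library labelled OE-UNC5B. Intervals are exact 95% intervals of the read counts and cover counting error only. In RNA from whole cultures, more RNA per cell and more cells with that RNA cannot be told apart.

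Serine is made in the cytosol from the glycolytic intermediate 3-phosphoglycerate, in consecutive steps by PHGDH, PSAT1 and PSPH. Serine hydroxymethyltransferase then moves a carbon from serine to tetrahydrofolate and leaves glycine. The same folate chemistry runs in parallel in the cytosol and in mitochondria, with separate enzymes in each, and formate carries carbon between them. The carbon is used for purines, thymidylate and methionine, and fast-growing cells, AML cells among them, are known for high levels of the mitochondrial enzymes.

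The 3 serine synthesis genes were more abundant in the library labelled OE-UNC5B, and by nearly the same factor. PHGDH, the NAD-dependent dehydrogenase that starts the pathway (ENSG00000092621, chromosome 1, 119659798 to 119744215, plus strand), counted 2409 reads in Vector against 6649 in the library labelled OE-UNC5B. After scaling to library size by TMM, this was 2.34-fold, a log2 fold change of 1.23 (95% interval 1.16 to 1.296). PSAT1, the aminotransferase of the next step (ENSG00000135069, chromosome 9, 78297143 to 78330093, plus strand), had 2942 and 8157 reads. Its log2 fold change was 1.23 (1.17 to 1.296). PSPH, the phosphatase that releases serine (ENSG00000146733, chromosome 7, 56011051 to 56051604, minus strand), was the least abundant of the 3, with 427 and 1153 reads. Its log2 fold change was 1.20 (1.03 to 1.36). Thus each of the 3 genes exceeded its Vector level by over 2-fold. Summed, they took 0.0421% of the counted reads of Vector but 0.102% of those of the library labelled OE-UNC5B. The 9 genes with enough reads form 36 pairs. In 3 of them the interval of the difference in log2 fold change held 0, the 3 pairs within serine synthesis. The genes were chosen on this contrast and the intervals cover counting error only, so this is a description. For PSPH minus SHMT2 the difference was 0.25 (0.07 to 0.43). With pseudogene reads added, PSPH was at 1.07 and SHMT2 at 0.95, and the pairs were not recomputed with these reads. Between PHGDH and PSAT1 the difference was -0.01 (-0.10 to 0.08), and between PSAT1 and PSPH it was 0.04 (-0.14 to 0.21).

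**Figure D1:**
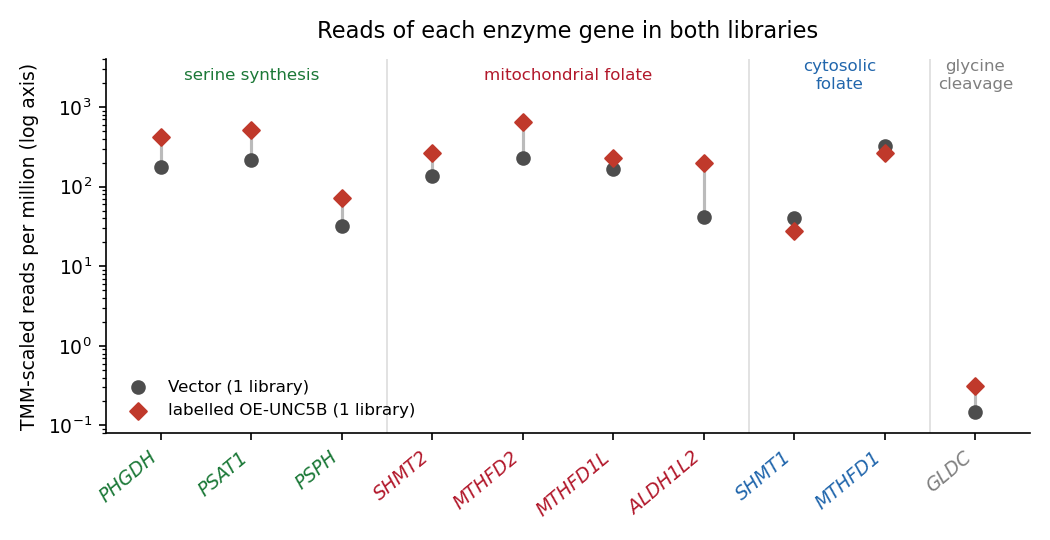
TMM-scaled CPM (reads scaled to library size, log axis) of each of the 10 enzyme genes, with 1 point per library (circle, Vector; diamond, library labelled OE-UNC5B) and genes ordered by role. The diamonds lie above the circles for the serine synthesis and mitochondrial folate genes and below them for SHMT1 and MTHFD1; GLDC, with 2 and 5 reads, is at the floor of the measurement.

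All 4 mitochondrial folate genes also had more reads in the library labelled OE-UNC5B, but by unequal amounts. ALDH1L2, which oxidises formyl-tetrahydrofolate to CO2 in mitochondria and yields NADPH (ENSG00000136010, chromosome 12, 105019784 to 105084577, minus strand), counted 554 reads in Vector against 3105 in the library labelled OE-UNC5B. This was 4.75-fold, a log2 fold change of 2.25 (2.12 to 2.38), and the highest of the members. MTHFD2, the mitochondrial dehydrogenase and cyclohydrolase (ENSG00000065911, chromosome 2, 74198562 to 74217565, plus strand), had 3080 and 10312 reads. It was 2.84-fold higher, with a log2 fold change of 1.51 (1.45 to 1.56). SHMT2, which feeds serine carbon into mitochondrial folate (ENSG00000182199, chromosome 12, 57229327 to 57234935, plus strand), had 1851 and 4213 reads. Its log2 fold change of 0.95 (0.87 to 1.03) was just under the 2-fold line, which lies inside its interval. MTHFD1L, the synthetase that releases formate from mitochondria (ENSG00000120254, chromosome 6, 150865549 to 151101887, plus strand), had 2219 and 3592 reads. Its log2 fold change of 0.46 (0.38 to 0.53) was the smallest of the mitochondrial genes. Between MTHFD1L and ALDH1L2, the smallest and the highest of the 4, the difference in log2 fold change was -1.79 (-1.95 to -1.64). This interval covers counting error only, and with 1 library per group nothing further is read from it.

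The cytosolic counterparts had lower scaled levels in the library labelled OE-UNC5B. SHMT1, the cytosolic serine hydroxymethyltransferase (ENSG00000176974, chromosome 17, 18327860 to 18363563, minus strand), counted 542 reads in Vector against 440 in the library labelled OE-UNC5B, a log2 fold change of -0.54 (-0.72 to -0.35). MTHFD1, which carries the dehydrogenase, cyclohydrolase and synthetase activities in 1 cytosolic protein (ENSG00000100714, chromosome 14, 64388031 to 64463457, plus strand), had 4342 and 4245 reads. These counts are close, and the log2 fold change of -0.27 (-0.33 to -0.21) is the value after scaling to the greater depth of the second library. Both values lie well inside the range of all genes tested, whose central 95% spanned -1.42 to 1.42. With library totals, DESeq2 size factors or the deposited FPKM in place of TMM, both values were also below 0. GLDC, the decarboxylase subunit of the mitochondrial glycine cleavage system (ENSG00000178445, chromosome 9, 6532464 to 6645650, minus strand), was at 2 reads (Vector) and 5 reads (OE-UNC5B). Its log2 ratio of 0.90 had an interval of -1.53 to 4.48, so no difference was detectable at this depth.

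**Figure D2:**
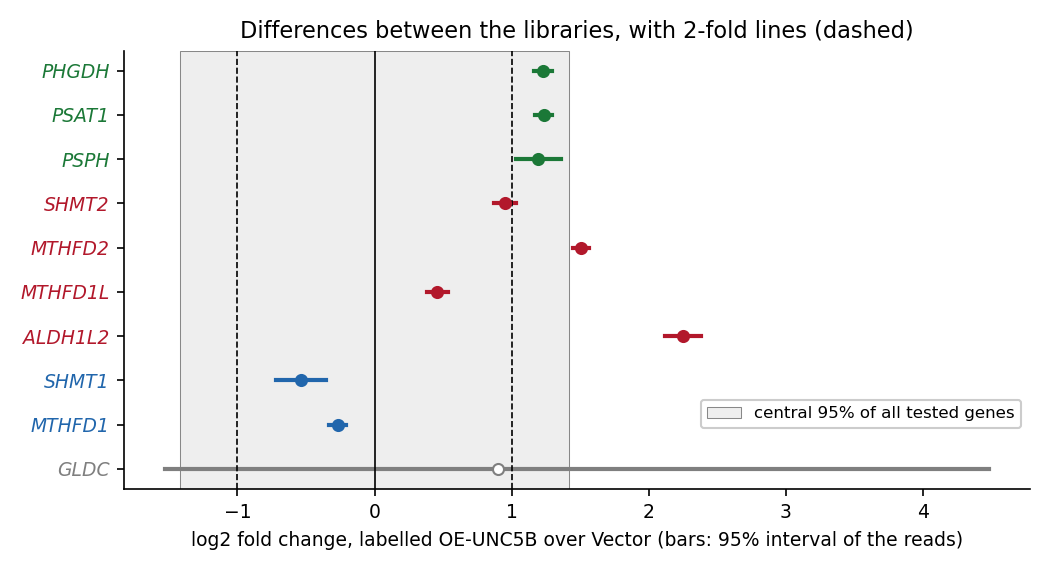
Log2 fold change of each enzyme gene of the library labelled OE-UNC5B over Vector, with 95% intervals of the reads as bars, 2-fold lines dashed, and the central 95% of all 15384 tested genes (-1.42 to 1.42) shaded. ALDH1L2 at 2.25 and MTHFD2 at 1.51 lie outside the shaded range, and SHMT1 and MTHFD1 lie below 0; the open point is GLDC, which had under 10 reads.

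The read minimum was passed by 9 of the 10 members. By counts, 5 of these 9 were at least 2-fold higher in the library labelled OE-UNC5B (PHGDH, PSAT1, PSPH, MTHFD2 and ALDH1L2), against 5.15% of all 15384 genes tested. At least 2-fold lower were 0 of the 9, against 4.79% of all genes. At any fold, 7 of the 9 were higher (49.4% of all genes) and 2 lower (50.6%). At 1.5-fold, 6 were higher (12.9%) and 0 lower (12.5%), and at 4-fold 1 was higher (1.0%) and 0 lower (1.15%). Since the members were chosen on this contrast, nothing is read from these shares. The median log2 fold change was 1.20 over the 9 members and -0.01 over all genes tested. ALDH1L2 ranked 116 from the highest among all tested genes, MTHFD2 ranked 333, PSAT1 512, PHGDH 517, PSPH 545 and SHMT2 879. MTHFD1L ranked 2726, so 17.7% of tested genes had a log2 fold change at least as high. On the lower side, 14.2% of genes were at least as low as SHMT1 and 28.4% were at least as low as MTHFD1. Nearest to the 2-fold line were PSPH, past it at a log2 fold change of 1.20, and SHMT2, short of it at 0.95.

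The balance between mitochondrial and cytosolic enzymes was then taken within each library, where it does not depend on how libraries are scaled. Levels are given as reads per kilobase of the main transcript (MANE Select in GENCODE 44) after scaling to library size, since genes differ in length. SHMT2 was at 63.6 and SHMT1 at 15.9 in Vector, a ratio of 4.0. In the library labelled OE-UNC5B they were at 122.9 and 10.95, a ratio of 11.2. The ratio of reads thus differed 2.80-fold between the libraries (95% interval 2.44 to 3.22). For MTHFD2 and MTHFD1 the levels per length were 51.9 and 102.1 in Vector, a ratio of 0.508. They were 147.3 and 84.7 in the library labelled OE-UNC5B, a ratio of 1.74. The order of the pair was thus exchanged between the libraries, and the ratio of reads differed 3.42-fold (3.23 to 3.63). For MTHFD1L, which shares the synthetase reaction with MTHFD1, the ratio to MTHFD1 was 0.467 and 0.773, a 1.66-fold difference (1.55 to 1.77). The ratio of ALDH1L2 to MTHFD1 was 0.0542 and 0.311, a 5.73-fold difference (5.18 to 6.35). MTHFD1 is not the counterpart of ALDH1L2, and ALDH1L2 was by itself 4.75-fold higher. ALDH1L1, the cytosolic counterpart of ALDH1L2, had 0 reads in both libraries, under the floor of 3 reads. At this depth, reads of the pair were thus seen for the mitochondrial gene alone. Summed over the members, the mitochondrial folate genes had 7704 reads against 4884 for the cytosolic pair in Vector, and 21222 against 4685 in the other library.

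**Figure D3:**
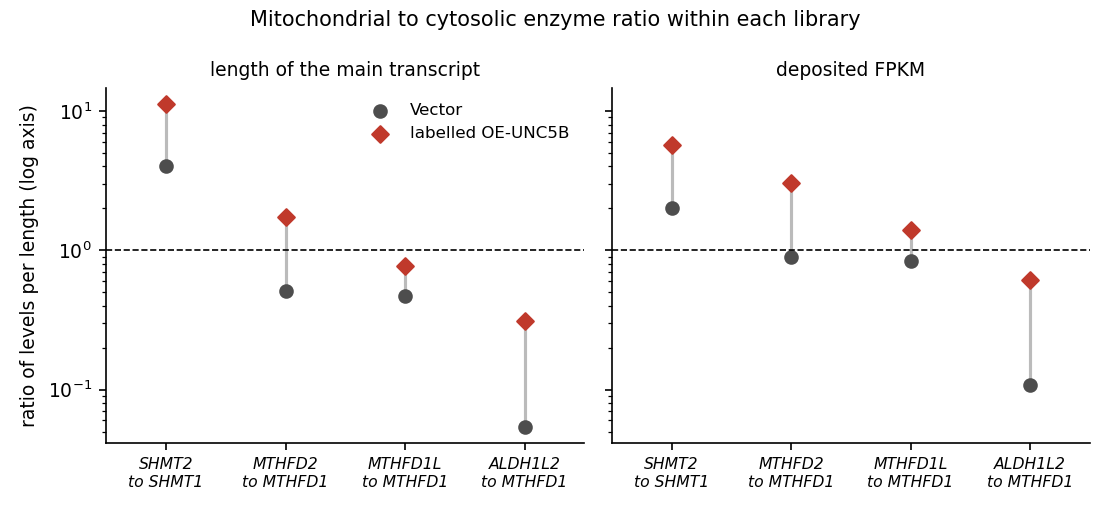
Ratio of the level of a mitochondrial enzyme gene to that of a cytosolic one within each library (log axis). Levels are per length of the main transcript (left) or as deposited FPKM (right). Circles are Vector and diamonds the library labelled OE-UNC5B. MTHFD1 is the cytosolic gene in all ratios but that of SHMT2 to SHMT1, and it is not the counterpart of ALDH1L2. Each diamond lies above its circle, and the MTHFD2 to MTHFD1 ratio passes 1 on both scales, while the MTHFD1L to MTHFD1 ratio passes 1 on the FPKM scale only.

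The order of levels among the 10 genes depended on the length behind it. Per kilobase of the main transcript, MTHFD1 (102.1), PSAT1 (98.9) and PHGDH (95.7) were highest in Vector, with intervals that overlapped between neighbours in this order. In the library labelled OE-UNC5B the highest were PSAT1 (232.6) and PHGDH (224.1), again overlapping, followed by MTHFD2 (147.3), SHMT2 (122.9) and then MTHFD1 (84.7). ALDH1L2 was at 5.53 in Vector but 26.3 in the library labelled OE-UNC5B, a low level beside its fold change. PSPH (16.04) and SHMT1 (15.9) could not be separated in Vector, but PSPH was at 36.7 and SHMT1 at 10.95 in the library labelled OE-UNC5B. The deposited FPKM instead put PSAT1 far above the others, at 80.6 and 196.0. It put SHMT2 at 7.52 and 15.0, below MTHFD1L at 22.2 and 31.6. The deposited counts and FPKM imply a length of 17952 bases for SHMT2, whereas its locus in the same table spans 5609 bases and its main transcript has 2157 bases. For PSAT1 the implied length was 2662 bases and the main transcript has 2206. Fold changes of a gene between the libraries do not depend on this length. On the FPKM scale, the MTHFD1L to MTHFD1 ratio was 0.843 and 1.40, so whether that pair changes order rests on the length used.

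The start regions of the members were compared because serine synthesis and mitochondrial folate genes were higher together. RefSeq promoters of build GRCh38.p14 (250 bases before to 50 bases after the annotated start) were matched for 7 of the 10 members, and PSPH, SHMT2 and ALDH1L2 had no entry. Searched on both strands were the ATF4 response element core (TGATGNAA), the cAMP response element core (TGACGTCA), the CCAAT box (CCAAT), the E-box (CACGTG) and the antioxidant response element core (TGACNNNGC). ATF4 is a transcription factor of the amino acid response that is known to act on serine synthesis genes. The 250 bases before the start are given 5′ to 3′ for the 4 matched members that were higher and for the cytosolic pair that was lower, with matches in capitals. No match shown overlaps another.
PHGDH, chr1:119711684-119711933, plus strand: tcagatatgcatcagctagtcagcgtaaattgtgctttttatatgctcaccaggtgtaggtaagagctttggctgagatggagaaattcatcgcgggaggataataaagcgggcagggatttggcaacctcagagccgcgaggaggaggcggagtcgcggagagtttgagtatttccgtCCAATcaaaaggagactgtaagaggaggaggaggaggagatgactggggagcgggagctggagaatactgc
PSAT1, chr9:78296875-78297124, plus strand: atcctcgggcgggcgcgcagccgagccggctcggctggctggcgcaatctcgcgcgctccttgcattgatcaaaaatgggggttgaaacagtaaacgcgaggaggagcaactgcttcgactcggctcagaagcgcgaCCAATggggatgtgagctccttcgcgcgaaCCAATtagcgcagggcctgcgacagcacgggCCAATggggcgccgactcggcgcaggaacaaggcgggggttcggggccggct
MTHFD2, chr2:74198365-74198614, plus strand: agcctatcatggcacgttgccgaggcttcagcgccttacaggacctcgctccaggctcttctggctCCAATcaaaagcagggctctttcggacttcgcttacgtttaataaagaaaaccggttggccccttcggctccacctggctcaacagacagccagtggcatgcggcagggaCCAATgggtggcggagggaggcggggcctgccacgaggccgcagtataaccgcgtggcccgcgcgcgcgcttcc
MTHFD1L, chr6:150866236-150866485, plus strand: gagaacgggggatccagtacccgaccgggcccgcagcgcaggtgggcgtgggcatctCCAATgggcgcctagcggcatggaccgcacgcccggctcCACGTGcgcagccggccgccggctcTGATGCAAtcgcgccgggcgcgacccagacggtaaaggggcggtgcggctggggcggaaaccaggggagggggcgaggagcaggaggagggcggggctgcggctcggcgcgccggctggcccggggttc
MTHFD1, chr14:64388103-64388352, plus strand: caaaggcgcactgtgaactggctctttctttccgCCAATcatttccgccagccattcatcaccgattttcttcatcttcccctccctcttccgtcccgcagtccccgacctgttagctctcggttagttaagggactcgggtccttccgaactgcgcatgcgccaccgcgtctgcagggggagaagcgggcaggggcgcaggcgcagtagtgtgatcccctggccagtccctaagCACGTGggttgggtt
SHMT1, chr17:18363551-18363800, minus strand: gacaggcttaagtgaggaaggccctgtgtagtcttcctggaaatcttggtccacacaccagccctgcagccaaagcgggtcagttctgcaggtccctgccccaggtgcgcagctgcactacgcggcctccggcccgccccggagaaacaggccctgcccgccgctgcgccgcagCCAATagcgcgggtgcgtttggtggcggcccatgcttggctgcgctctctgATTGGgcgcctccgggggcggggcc

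The 7 matched members have 10 windows, since MTHFD1L has 4. A CCAAT box was present before the start in 9 of these 10 windows, against 33.2% of the same windows of tested genes, and in at least 1 window of each of the 7 members, SHMT1, MTHFD1 and GLDC included. Of the 9, 3 are overlapping windows of MTHFD1L that hold the same CCAAT, so the windows are not independent. PSAT1 had 3 of them, at -113, -83 and -52 from the start. The CCAAT box was therefore shared by members that were higher and members that were lower. The ATF4 response element core was found in 1 of the 7 members, MTHFD1L, as TGATGCAA at -129 in the window shown. It lay before the start in 2 of the 10 windows, which overlap each other, against 1.67% of upstream windows of tested genes. Of the 4 windows of MTHFD1L, 3 cover this match. An E-box was found before the start of MTHFD1L and MTHFD1, in 3 of the 10 windows, 2 of which are MTHFD1L windows with the same site, against 8.38% of upstream windows of tested genes. The cAMP response element core was found in 0 of the 7 members, against 2.81% of full windows of tested genes. The antioxidant response element core was found before the start of 0 of the 7, against 11.8% of upstream windows of tested genes, and at 6 bases after the start in MTHFD2. Matches are letters in a short window only, and nothing about binding follows from a match or from its absence.

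Other genes of the pathway were taken from lists made by function. In these lists SLC25A32, TYMS, SLC1A4, MYC, NFE2L2 and KEAP1 are named after their values were seen. So are the mitochondrial serine and glycine carriers and the genes at 0 reads. Beside each count past 2-fold in these lists stand the 5.15% (higher) and 4.79% (lower) of all genes tested, so a count of 0 in a list this short is near the background. Among 4 further mitochondrial folate genes, MTHFD2L, the close relative of MTHFD2, was at least 2-fold higher in the library labelled OE-UNC5B. It counted 58 and 163 reads, in the order Vector and the library labelled OE-UNC5B as in all pairs below, a log2 fold change of 1.25 (0.81 to 1.71). The mitochondrial folate carrier SLC25A32 had 1432 and 1569 reads and a log2 fold change of -0.11, with an interval from -0.21 to just under 0. Of the 4 genes, 2 had log2 fold changes above 0 and 2 below, with a median of 0.29. For glycine cleavage and lipoylation, 6 of 6 genes were tested and 0 passed 2-fold, with a median of -0.33. DLD, the dihydrolipoamide dehydrogenase subunit, had 1958 and 1868 reads (-0.30 on the log2 scale), and LIAS, which makes lipoate, had 253 and 343 reads (0.20).

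Of the further genes of cytosolic folate use, 3 are described. GART and ATIC, which place formyl groups on the purine ring, had log2 fold changes of 0.07 (upper bound 0.14, lower bound just under 0) and -0.19 (-0.27 to -0.11). TYMS, the thymidylate synthase, had 2494 and 1896 reads, a log2 fold change of -0.63 (-0.72 to -0.55). For folate uptake and retention, 4 of 7 genes were tested, 0 passed 2-fold and the median was -0.20. The reduced folate carrier SLC19A1 had 1142 and 743 reads, a log2 fold change of -0.86 (-0.99 to -0.72). GGH, which removes glutamates from folate, had 1101 and 1040 reads (-0.32). The folate receptors FOLR1, FOLR2 and FOLR3 had 0 reads in both libraries. In the methionine cycle, 7 of 9 genes were tested and 0 passed 2-fold, with a median of 0.15. MAT2A, which makes S-adenosylmethionine, had 8685 and 12235 reads (0.26), and AHCY, which clears its product, had 4853 and 5209 reads (-0.13).

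Carriers of serine and glycine had a median of 0.85 over 9 tested genes of 11, against -0.01 over all genes tested. Of the 9, 4 were at least 2-fold higher (5.15% of all genes tested) and 0 lower (4.79%). SLC6A9, a glycine transporter, had 40 and 243 reads, a log2 fold change of 2.35 (1.88 to 2.89). SLC38A1 and SLC38A2, sodium-coupled carriers of neutral amino acids, had log2 fold changes of 1.10 (1.03 to 1.16) and 1.08 (1.02 to 1.13). SLC1A5, which exchanges neutral amino acids, was at 1.03 (0.97 to 1.09), and the 2-fold line lies inside its interval. These 4 genes act at the plasma membrane. SLC1A4, which also acts there, had 1863 and 3945 reads and was under 2-fold, at 0.85 (0.77 to 0.93). Carriers of the mitochondrial membrane lay on both sides of 0. SFXN1, a mitochondrial serine carrier, had 1777 and 1497 reads, a log2 fold change of -0.48 (-0.58 to -0.38). Its relative SFXN3 had 1475 and 2168 reads, a log2 fold change of 0.32 (0.22 to 0.41), and SFXN2 was at -0.18. The glycine carrier SLC25A38 was at 0.25. Among enzymes that use or break down serine or glycine, 13 of 19 were tested, 0 were at least 2-fold higher and 1 was lower, with a median of 0.15. The 1 lower gene, GATM, had 8 and 3 reads and is named here after its values were seen. PTDSS1, which uses serine for phosphatidylserine, had 5233 and 7553 reads (0.29), and ALAS1, which uses glycine for heme, had 1733 and 1607 reads (-0.35). Of 6 regulators, 5 were tested and 0 passed 2-fold. ATF4 had 4993 and 10509 reads, a log2 fold change of 0.84 (0.79 to 0.89), and EHMT2, a histone methyltransferase, was at 0.08. MYC, which is also known to act on serine synthesis genes, had 345 and 451 reads, a log2 fold change of 0.15 (-0.06 to 0.36). NFE2L2 was at 0.27 (0.16 to 0.39) and KEAP1 at -0.30 (-0.41 to -0.19). The median of the 5 tested regulators was 0.15.

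**Figure D4:**
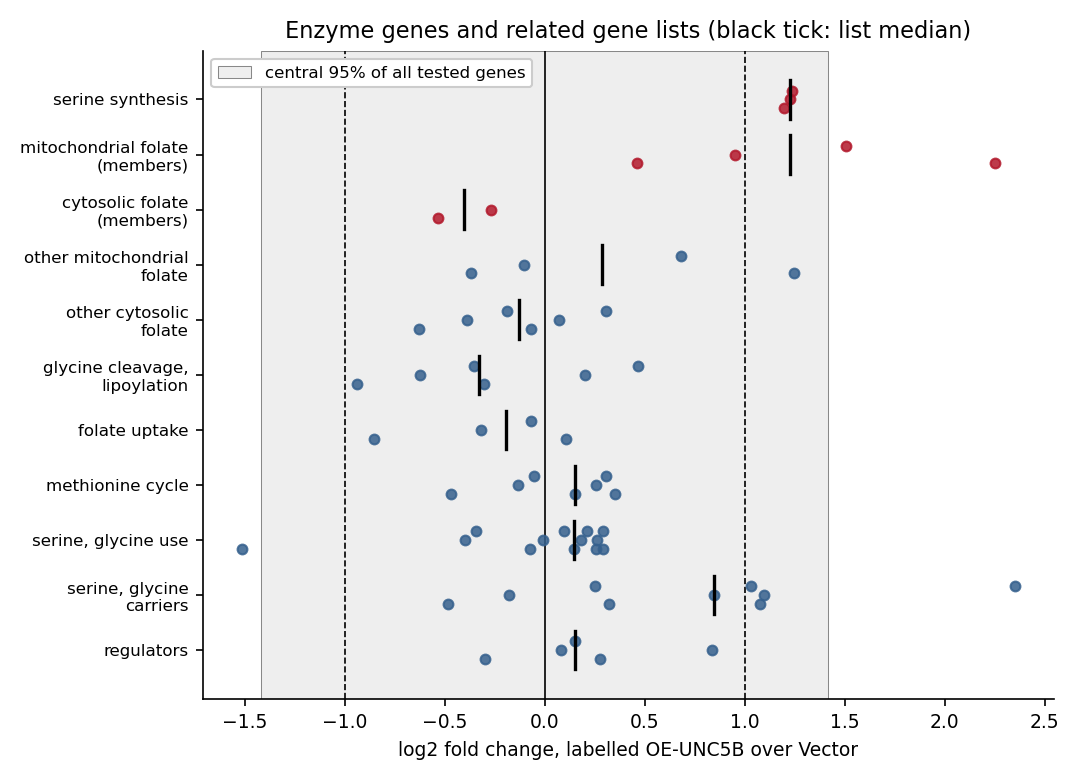
Log2 fold change of the library labelled OE-UNC5B over Vector for each tested gene of the members (red) and of the related lists (blue), with black ticks at list medians, dashed 2-fold lines and the central 95% of all tested genes shaded. The 3 serine synthesis genes and the 4 mitochondrial members all lie above 0 and both cytosolic members below it, while the carriers (7 above, 2 below) and the glycine cleavage and lipoylation genes (2 above, 4 below) lie on both sides.

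Near-identical copies and overlapping genes could share reads with the members, since the use of strand is not given in the sources used here. The table holds 15 pseudogenes named for a member. PSPHP1, the copy of PSPH, had 58 and 50 reads, 13.6% and 4.34% of the reads of PSPH. With its reads added to those of PSPH, the log2 fold change was 1.07 in place of 1.20. MTHFD2P7 had 9 and 32 reads and PSAT1P3 had 3 and 16 reads, 0.310% and 0.196% of the reads of the parent in the library labelled OE-UNC5B. All other pseudogenes named for a member had at most 14 reads in either library. AL133260.1, a processed pseudogene that overlaps MTHFD1L by 405 bases on the same strand, had 76 and 82 reads, against 2219 and 3592 for MTHFD1L. C12orf45, which overlaps ALDH1L2 by 29954 bases on the opposite strand, had 155 and 132 reads, against 554 and 3105 for ALDH1L2. SMCR8, which overlaps SHMT1 by 196 bases on the opposite strand, was more abundant than SHMT1, with 1233 and 1855 reads against 542 and 440, and its log2 fold change was 0.35. ZBTB25, opposite MTHFD1, had 184 and 228 reads, against 4342 and 4245 for MTHFD1. NDUFA4L2 overlaps SHMT2 by 33 bases on the opposite strand and had 47 and 200 reads.

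The members lie on 8 chromosomes, and the genes beside them on the chromosome were examined for comparison. The 5 nearest tested protein-coding genes on each side of a member gave 100 genes, with a median log2 fold change of 0.08. Of these, 9 were at least 2-fold higher and 6 at least 2-fold lower, beside 5.15% and 4.79% of all genes tested. Around MTHFD2, 0 of 10 neighbours passed 2-fold, and they ranged from -0.70 to 0.57. Around PHGDH, 0 of 10 were at least 2-fold higher and 1 was lower, with a range from -1.64 to 0.52. The lower gene was TENT5C, with 14 and 5 reads, named after its values were seen. Around SHMT2, 4 of 10 neighbours were at least 2-fold higher. These were NDUFA4L2, R3HDM2, INHBE and GLI1, at 11.4, 201.7, 223.0 and 230.8 kb from the start of SHMT2, and they are named after their values were seen. INHBE, which encodes an activin subunit, had 16 and 156 reads, a log2 fold change of 3.01. The 5 neighbours on the other side of SHMT2 lay between -0.31 and 0.26.

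**Figure D5:**
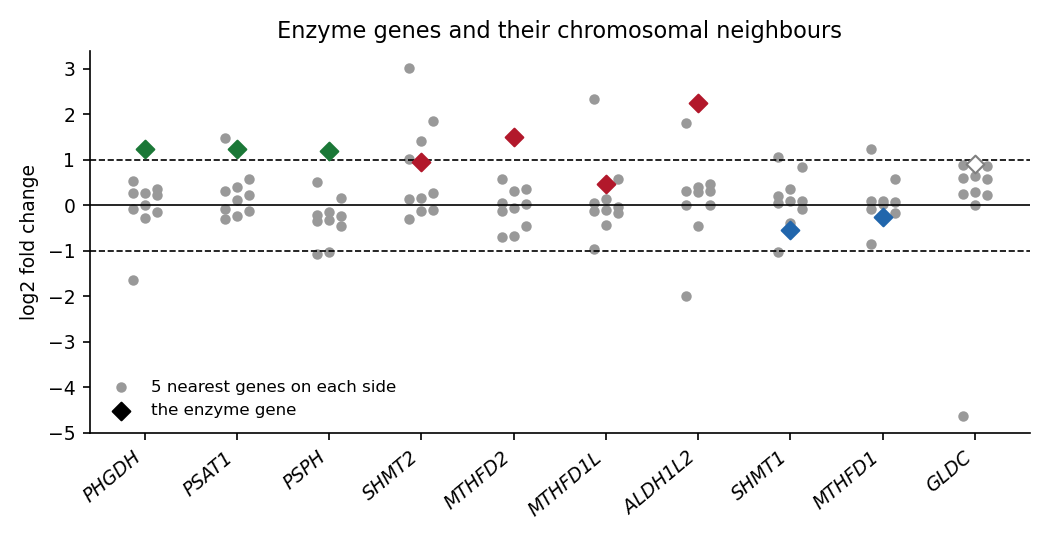
Log2 fold change of each enzyme gene (diamonds; open for GLDC) and of the 5 nearest tested protein-coding genes on each side (grey points), with dashed 2-fold lines. The neighbours have medians of 0.12 around PHGDH, 0.16 around PSAT1, -0.28 around PSPH, -0.01 around MTHFD2 and 0.30 around ALDH1L2, while these 5 enzyme genes lie above 1; 4 neighbours of SHMT2 are above the line.

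Base composition and length of the main transcript varied among the members. GC content ran from 41.0% for MTHFD2 to 58.1% for PHGDH, and length from 1866 bases for PHGDH to 7428 bases for ALDH1L2. Over all tested protein-coding genes, divided into 5 bins of equal size by GC content, the median log2 fold change went from 0.13 in the lowest bin to -0.16 in the highest. By length it went from -0.21 to 0.19. The members at least 2-fold higher lay in 3 of the 5 bins of GC content, and SHMT1 and MTHFD1 shared a bin with PSPH and MTHFD1L. The part of base composition and length in the results was not tested.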

How the data were processed

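Values deposited by the authors were counts of reads, not normalized, and FPKM (counts divided by a gene length and the library total) for 1 Vector library and 1 OE-UNC5B library of MOLM-13 cells. Libraries came from a VAHTS Universal kit and an Illumina HiSeq instrument, and GRCh38 was the genome. The submitters' processing notes name bcl2fastq 2.19, HISAT2 2.0.4 and StringTie 1.3.0. How reads were counted, on which annotation and with which strand setting, is not given in the sources used here.

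TMM factors from edgeR 4.0.16 in R 4.3.3 scaled the counts, with values of 0.984 for Vector and 1.02 for OE-UNC5B. Log2 fold changes had 0.5 reads added, and the 15384 genes that reached 10 reads in total were used as background. With 1 library per group, edgeR's quasi-likelihood test could not be fitted and no p-value is given. A gene was called at 2-fold. Intervals are 95% Clopper-Pearson intervals for a fold change, conditional exact intervals (scipy 1.17.1) for a ratio of ratios, and exact Poisson intervals for a level. A floor of 3 reads was 0.219 (Vector) and 0.192 (OE-UNC5B) CPM. Main transcripts, GC content and biotypes came from GENCODE 44, which held 49659 of the 50868 gene identifiers. The procedure was tested on simulated counts. The members, the lists and the alternatives were chosen with earlier results of these data known. Named were the 10 members, UNC5B, and in each list every gene past 2-fold with at least 50 reads, or otherwise its 2 genes with the most reads. The use of pseudogene reads and of main transcript lengths was chosen after seeing the data. Alternatives comprised DESeq2 1.42.0 size factors and library totals for scaling, FPKM (plus 0.1 or plus 1), a prior of 2 reads, a minimum of 50 reads or none, and folds of 1.5 and 4. Some genes of these lists are not reported here.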

Additional observations from a re-analysis of the deposited data

How the results depend on the processing

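No paired analysis was possible because Vector and OE-UNC5B each have a single library, so leaving out a replicate was not possible either. The 9 tested members kept their direction under the other scalings, FPKM, prior counts and read minimums, and with pseudogene reads added, and 5 were at least 2-fold higher under each of these settings. At 1.5-fold there were 6, and at 4-fold there was 1, by construction. A constant added to FPKM draws the log2 fold change of a gene with low FPKM toward 0 by construction. ALDH1L2, for example, had FPKM of 2.83 and 13.9. A filter changes which genes enter. Other causes of the changes below were not tested. With FPKM and 1 added, the log2 fold change of ALDH1L2 was 1.96, the median of the members 1.08, the difference of the SHMT2 to SHMT1 ratio 2.43-fold and that of the ALDH1L2 to MTHFD1 ratio 4.51-fold. Without a filter, GLDC entered and the median of the members was 1.07. Over all tested genes, those at least 2-fold higher and lower numbered 792 and 737. FPKM gave 583 and 430 with 0.1 added and 161 and 123 with 1 added, no filter 2886 and 3079, at least 50 reads 359 and 297, a fold of 1.5 gave 1989 and 1925, and a fold of 4 gave 154 and 177. Depth limits GLDC, which had 2 and 5 reads.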

Other observations

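The lengths implied by the deposited counts and FPKM exceeded the span of the gene's own locus in the same table for 8.9% of tested genes, SHMT2 among them. Over the members, the implied length was 1.21 times the main transcript for PSAT1 and 8.32 times for SHMT2, so levels of different genes on the FPKM scale are not on a common length. Which gene models lie behind these lengths is not given in the sources used here.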
